A study of Mus musculus with 10 samples.

Results

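Clearance of dying cells depends on receptors that recognise phosphatidylserine on the dying cell and on soluble proteins that bridge the dying cell to the phagocyte. The 8 genes described here belong to that system: the TAM receptor kinases Mertk and Axl, the bridging proteins Gas6, Pros1 and Mfge8, and the receptors Cd36, Stab1 and Timd4. They were picked by name from the known uptake genes with earlier results of the same comparison in view, so their differences between the genotypes are given as descriptions without a test. The 8 genes were found by symbol among the 52636 genes of the count table, and 7 of them passed the filter on low counts that 13469 genes passed. Timd4 did not.

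TAM receptors (Tyro3, Axl and Mertk) are receptor tyrosine kinases that bind phosphatidylserine indirectly. Gas6 and protein S, the product of Pros1, carry a vitamin K-dependent domain that holds the lipid and a second end that activates the receptor. Gas6 binds all TAM receptors, while protein S acts on Tyro3 and Mertk. In macrophages Mertk is best known for engulfment of apoptotic cells, and Axl is typically induced by inflammatory signals such as interferons. Both dampen cytokine production after uptake.

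The libraries are bulk RNA sequencing of nonclassical monocytes, the patrolling monocyte subset, sorted from mouse bone marrow. The WT group held 5 libraries of genotype LAIR1+/+ and the LAIR1KO group 5 libraries of genotype LAIR1-/-, all untreated. LAIR1 restrains leukocytes when it meets collagen, and the comparison asks what differs in these cells without it. Per the labels, the sort reached a purity of 98% and 5000 to 10000 cells gave each low-input RNA preparation. The labels give no age, sex, strain background or sort gate, and they do not say how the Lair1 allele was made.

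Lair1 itself averaged 374 ± 27.7 CPM (TMM-scaled CPM, that is counts relative to library size; SD, n = 5) in the WT libraries against 0.226 ± 0.276 CPM without the gene (two-sided exact permutation p = 0.00794, the smallest that 5 against 5 allows), so the labels held in every library. Library totals ran from 12106209 to 15356924 counts. The cell type fitted its label in that the 10 nonclassical monocyte markers summed to 9407 to 10864 CPM in WT libraries and to 6980 to 10733 CPM in LAIR1KO, with none at 0 in any library. Markers of other cells also moved. The 6 myeloid progenitor markers, led by Mpo, summed to 489 to 1319 CPM in WT and 3092 to 6535 CPM in LAIR1KO, highest in LAIR1KO replicates 4 and 5, and all 6 were higher by the edgeR test (5.11% of all tested genes were called higher). The 10 resident macrophage markers, led by Adgre1, summed to 1057 to 1252 CPM in WT and 758 to 1091 CPM in LAIR1KO, with none at 0 in any library and 3 of 9 tested members lower by that test (Vcam1, Spic and Mrc1; 1.68% of all tested genes were called lower). Cd163 of the same list went the other way without a call (log2 fold change 0.77 ± 0.28, SE, edgeR adjusted p = 0.125). The remaining tested members had log2 fold changes below 0 and were not called. The sums of the other marker lists overlapped between the groups. Among them the 6 neutrophil markers summed to 269 to 1385 CPM in WT and 628 to 1026 CPM in LAIR1KO, and the 6 megakaryocyte and platelet markers to 7.29 to 159 CPM and 3.25 to 12.0 CPM, highest in WT replicate 5. In bulk RNA, fewer cells of a type and less RNA per cell cannot be told apart, and the part of these lists in the results below was not tested.

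The promoters of Mertk and Axl, the TAM receptors with the most separated values, are shown from RefSeq (GRCm38.p6), from 250 bases before to 50 after the RefSeq start. All 8 genes had a promoter in that table. Mertk lies on the plus strand (chr2:128698665-128698964) and Axl on the minus strand (chr7:25788684-25788983), each written 5′ to 3′ on its own strand. Capitals mark the matches to any of 5 motifs searched on both strands.
Mertk: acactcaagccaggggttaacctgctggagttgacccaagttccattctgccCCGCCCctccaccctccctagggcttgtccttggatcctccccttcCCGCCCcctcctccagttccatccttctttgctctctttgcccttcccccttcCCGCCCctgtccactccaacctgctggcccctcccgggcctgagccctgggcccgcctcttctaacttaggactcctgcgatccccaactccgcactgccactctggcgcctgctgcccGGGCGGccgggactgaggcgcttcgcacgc
Axl: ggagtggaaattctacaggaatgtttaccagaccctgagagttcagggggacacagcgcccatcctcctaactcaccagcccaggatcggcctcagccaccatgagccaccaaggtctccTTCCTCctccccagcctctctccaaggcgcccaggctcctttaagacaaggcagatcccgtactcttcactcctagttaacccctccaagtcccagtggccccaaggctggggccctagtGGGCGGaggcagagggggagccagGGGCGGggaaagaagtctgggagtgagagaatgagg

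The motifs were the GC box GGGCGG, the PU.1 core GAGGAA, the interferon response core TTTCNNTT, the MAF element TGCTGAC and the nuclear receptor element AGGTCA. The Mertk window held 4 GC boxes and the Axl window held 2 GC boxes and 1 PU.1 core, the last on the opposite strand. These letters are common. Of 32851 promoters of the same length, 35.7% held the GC box, 28.3% the PU.1 core, 23.9% the interferon response core, 16.3% the nuclear receptor element and 4.67% the MAF element. The matches describe these windows and are not shown to be binding sites.

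Mertk (ENSMUSG00000014361, GRCm38 chr2:128698956-128802894, plus strand) was measured at 5.94, 4.54, 6.32, 4.90 and 4.88 CPM in WT replicates 1 to 5. In LAIR1KO replicates 1 to 5 it was measured at 0.959, 1.14, 1.13, 1.17 and 0.507 CPM. Every LAIR1KO library lay below every WT library, and the groups did not overlap. The means were 5.32 ± 0.768 and 0.981 ± 0.277 CPM (SD, n = 5), a log2 fold change of -2.43 ± 0.28 (LAIR1KO minus WT, SE), or 5.38-fold lower. The counts behind these values were small, 54 to 85 per WT library and 7 to 17 per LAIR1KO library. The lowest WT library had an exact Poisson 95% interval of 3.41 to 5.93 CPM and the highest LAIR1KO library one of 0.654 to 1.93 CPM. Such intervals cover counting error only, and pairs of libraries of a group differed beyond it (chi-square per degree of freedom 15.5 to 78.3). That measure took genes above a minimum count in the pair and scaled them by library totals, not by TMM. The counts carry no molecular identifiers, so the intervals may be too narrow.

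Axl (ENSMUSG00000002602, chr7:25757273-25788705, minus strand) stood at 236, 142, 178, 228 and 118 CPM in WT replicates 1 to 5. The LAIR1KO replicates 1 to 5 held 49.4, 37.2, 44.6, 71.3 and 69.0 CPM. The groups again did not overlap, although both were spread: WT replicates 1 and 4 were the highest of WT, and LAIR1KO replicates 4 and 5 the highest of LAIR1KO. The means were 180 ± 51.6 and 54.3 ± 15.2 CPM (SD, n = 5), a log2 fold change of -1.73 ± 0.22, or 3.32-fold lower. The log2 fold change was -2.04 without LAIR1KO replicates 4 and 5 and -1.43 without WT replicates 1 and 4. These LAIR1KO libraries also held the highest sums of the myeloid progenitor markers.

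Tyro3, the third TAM receptor, was at 0 in every library except WT replicate 1, where it reached 0.0836 CPM, and it did not pass the filter on low counts. Per kilobase of exon, Axl made up 96.5% ± 0.85 of the TAM receptor level in WT and 97.8% ± 0.989 in LAIR1KO (SD, n = 5). The level of Axl per kilobase was 29.2 ± 7.78 times that of Mertk in WT, with libraries from 20.9 to 40.1. In LAIR1KO the ratio was 55.3 ± 35.9, with libraries from 28.0 to 117, so the ranges overlapped.

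**Figure D1:**
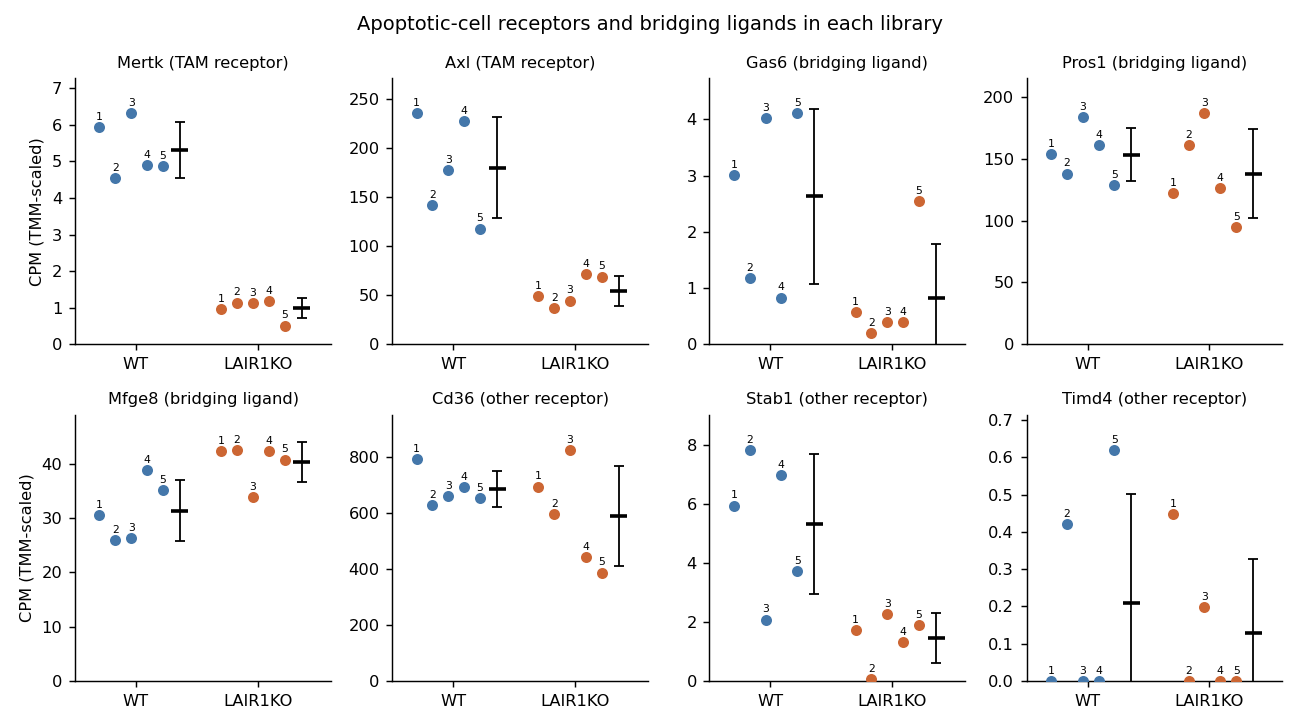
TMM-scaled CPM (vertical axes, each starting at 0) of the 8 genes in each WT (blue) and LAIR1KO (orange) library, with replicate numbers beside the points. Black bars show the mean and SD over 5 libraries and stop at 0. Mertk and Axl are the genes whose groups do not overlap, and Gas6 overlaps through LAIR1KO replicate 5.

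Among the bridging proteins, the direction differed by gene. Gas6 (ENSMUSG00000031451, chr8:13465374-13494490, minus strand), the ligand shared by all TAM receptors, was near the limit of detection at 12 to 54 counts per WT library and 3 to 35 per LAIR1KO library. WT replicates 1 to 5 held 3.01, 1.18, 4.02, 0.828 and 4.11 CPM. The LAIR1KO replicates 1 to 5 held 0.575, 0.202, 0.398, 0.389 and 2.54 CPM. Replicates 1 to 4 of LAIR1KO lay below every WT library, and LAIR1KO replicate 5 lay within the WT range. The means were 2.63 ± 1.55 and 0.82 ± 0.968 CPM (SD, n = 5). The log2 fold change was -1.68 ± 0.66, and -2.72 without LAIR1KO replicate 5. The exons of Gas6 overlap the antisense gene Tmem255b over 1.3% of their length, and that gene had 0 counts.

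Pros1 (ENSMUSG00000022912, chr16:62854307-62929346, plus strand), which encodes protein S, was abundant and overlapped between the genotypes. It stood at 154, 138, 184, 161 and 129 CPM in WT replicates 1 to 5. In LAIR1KO replicates 1 to 5 it stood at 122, 161, 187, 126 and 94.5 CPM. The highest library of all and the lowest were both LAIR1KO libraries. The means were 153 ± 21.3 and 138 ± 36.3 CPM (SD, n = 5), with a log2 fold change of -0.15 ± 0.17. Without LAIR1KO replicates 4 and 5 it was 0.03, so its sign rested on those libraries. Per kilobase, Pros1 made up 97.3% ± 1.63 of the summed Pros1 and Gas6 level in WT and 98.8% ± 1.66 in LAIR1KO.

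Mfge8 (ENSMUSG00000030605, chr7:79133768-79149060, minus strand) encodes a secreted protein that links phosphatidylserine to αv integrins and so works apart from the TAM receptors. It is the gene of the group with a positive fold change. WT replicates 1 to 5 held 30.6, 25.9, 26.3, 38.8 and 35.2 CPM, and LAIR1KO replicates 1 to 5 held 42.4, 42.6, 33.9, 42.3 and 40.8 CPM. In LAIR1KO 4 of 5 libraries lay above every WT library, and LAIR1KO replicate 3 lay within the WT range. The means were 31.4 ± 5.61 and 40.4 ± 3.71 CPM (SD, n = 5), a log2 fold change of 0.36 ± 0.14.

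Cd36 (ENSMUSG00000002944, chr5:17781690-17888801, minus strand) encodes a scavenger receptor for oxidised lipids that cooperates with αv integrins in uptake. It stood at 790, 628, 660, 692 and 653 CPM in WT replicates 1 to 5. In LAIR1KO replicates 1 to 5 it stood at 693, 594, 824, 442 and 386 CPM. The LAIR1KO libraries were spread widely, with replicate 3 above every WT library and replicates 4 and 5 far below. The means were 685 ± 63.3 and 588 ± 180 CPM (SD, n = 5), a log2 fold change of -0.22 ± 0.18 that became 0.04 without LAIR1KO replicates 4 and 5.

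Stab1 (ENSMUSG00000042286, chr14:31139013-31168641, minus strand) encodes stabilin-1, a scavenger receptor of sinusoidal endothelium and of tissue macrophages. WT replicates 1 to 5 held 5.94, 7.83, 2.08, 6.97 and 3.72 CPM. LAIR1KO replicates 1 to 5 held 1.73, 0.0673, 2.25, 1.32 and 1.88 CPM, the value of replicate 2 being 1 count. The groups overlapped at WT replicate 3 and LAIR1KO replicate 3 alone. The means were 5.31 ± 2.37 and 1.45 ± 0.842 CPM (SD, n = 5). The log2 fold change was -1.86 ± 0.55, and -1.56 without LAIR1KO replicate 2. The antisense gene Nt5dc2 covers 1.1% of its exon length and held more counts than Stab1 (means of 288.4 and 44.6 per library), so reads in that stretch cannot be assigned without a known strand setting. The 7 endothelial and stromal markers summed to 7.45 to 33.5 CPM in WT and 5.04 to 11.0 CPM in LAIR1KO. Cxcl12 led these sums, with means of 14.5 CPM in WT and 6.24 CPM in LAIR1KO. The endothelial markers Cdh5, Kdr and Emcn averaged 0.151, 1.52 and 0.411 CPM in WT and 0.0269, 0.808 and 0.11 CPM in LAIR1KO. Of the 7 markers 6 were at 0 in some library, Cdh5, Kdr and Emcn among them. The part of these markers in the Stab1 values was not tested.

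Timd4 (ENSMUSG00000055546, chr11:46810800-46844332, plus strand) encodes TIM-4, a phosphatidylserine receptor of long-lived resident macrophages. It was at 0 in 6 of 10 libraries, where a limit of 3 counts allows 0.202 to 0.251 CPM. The remaining libraries held 5 and 8 counts (WT replicates 2 and 5) and 7 and 3 counts (LAIR1KO replicates 1 and 3). No fold is given, and a difference was not detectable at this depth.

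In all, 6 of the 7 genes above the filter had a log2 fold change below 0 and 1 above 0. Their median was -1.68, beside 0.0 over all 13469 genes. Lower without overlap of the groups were 2 of the 7 (Mertk and Axl), where 2.06% of all tested genes were lower without overlap. Higher without overlap were 0 of the 7, where the share over all tested genes was 5.61%. Since the genes were chosen with this comparison known, these counts describe the choice and are not support for a direction of the group.

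Levels of different genes were compared per kilobase of exon. In WT, Cd36 was the most abundant at 191 ± 17.6 CPM per kb, followed by Pros1 at 37.5 ± 5.21 and Axl at 35.8 ± 10.2 CPM per kb (SD, n = 5). Cd36 was above Pros1 in every WT library. Pros1 and Axl did not differ beyond their spread, with Pros1 the higher in 3 of 5 WT libraries. Mfge8 stood lower at 6.68 ± 1.19 CPM per kb and Mertk at 1.23 ± 0.177 CPM per kb, each separated from the gene above it in every WT library. The ranges of Mertk, Gas6 (1.03 ± 0.608 CPM per kb) and Stab1 (0.516 ± 0.23 CPM per kb) overlapped from neighbour to neighbour. Timd4 was last at 0.0958 ± 0.135 CPM per kb.

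In LAIR1KO the order at the top was Cd36 at 164 CPM per kb, with libraries from 108 to 230, and Pros1 at 33.8 ± 8.87 CPM per kb. Axl followed at 10.8 ± 3.01 CPM per kb and Mfge8 at 8.61 ± 0.791 CPM per kb. Pros1 was above Axl in every LAIR1KO library, while Axl and Mfge8 overlapped, with Axl higher in 4 of 5. Mertk at 0.226 ± 0.064 CPM per kb lay next to Gas6 at 0.322 ± 0.38 CPM per kb, with Gas6 above Mertk in 2 of 5 libraries. Replacing the union of exons by the longest transcript changed the rank of 0 genes in WT.

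**Figure D2:**
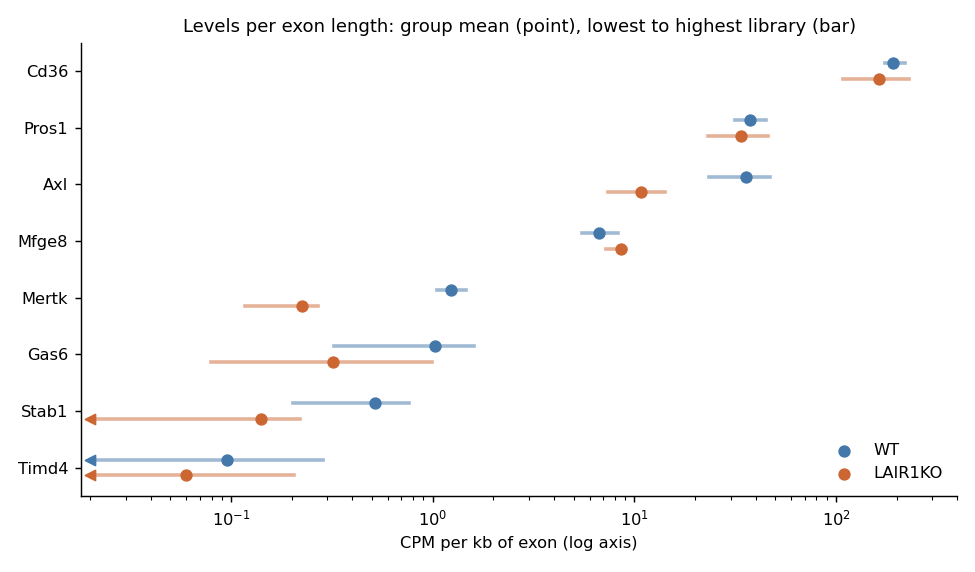
Level per kilobase of exon (horizontal log axis, CPM per kb) of the 8 genes, with the mean of 5 libraries as a point and a bar from the lowest to the highest library, WT in blue and LAIR1KO in orange. Arrowheads mark a lowest library below the left end of the axis. The bars of Pros1 and Axl overlap in WT and are apart in LAIR1KO.

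The genes with library profiles most like that of Mertk were sought among 10159 genes by the root mean square difference of mean-centred log2 CPM over the 10 libraries. The 5 nearest were C1qa at 0.38, C1qc at 0.48, C1qb at 0.49, Wfdc17 at 0.50 and Ms4a7 at 0.51, against a median of 1.22 over all genes. C1qa, C1qb and C1qc are the chains of complement C1q, Wfdc17 encodes a small secreted protease inhibitor-like protein, and Ms4a7 a membrane protein of macrophages. Axl ranked 11 in this list at 0.59. The profiles share the gap between the genotypes, which dominates the measure, and the same libraries.

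For Axl the 5 nearest were Ciita, Mrc1 and Aif1 at 0.28 each and H2-Ab1 and Ccl5 at 0.29, against a median of 0.97. Ciita is the master regulator of MHC class II transcription and H2-Ab1 encodes an MHC class II chain. Mrc1 encodes the macrophage mannose receptor, Aif1 the actin-binding protein IBA1 and Ccl5 a chemokine. Mertk ranked 75 for Axl at 0.59. Within WT, Axl and its neighbours were highest in replicates 1 and 4, as the plot of centred profiles shows. Mrc1 belongs to the resident macrophage marker list, of which 3 of 9 tested members, Mrc1 among them, were called lower. Over all tested genes 1.68% were called lower. Cd163 of that list had a log2 fold change of 0.77 ± 0.28 (SE), and it and the remaining tested members were not called.

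**Figure D3:**
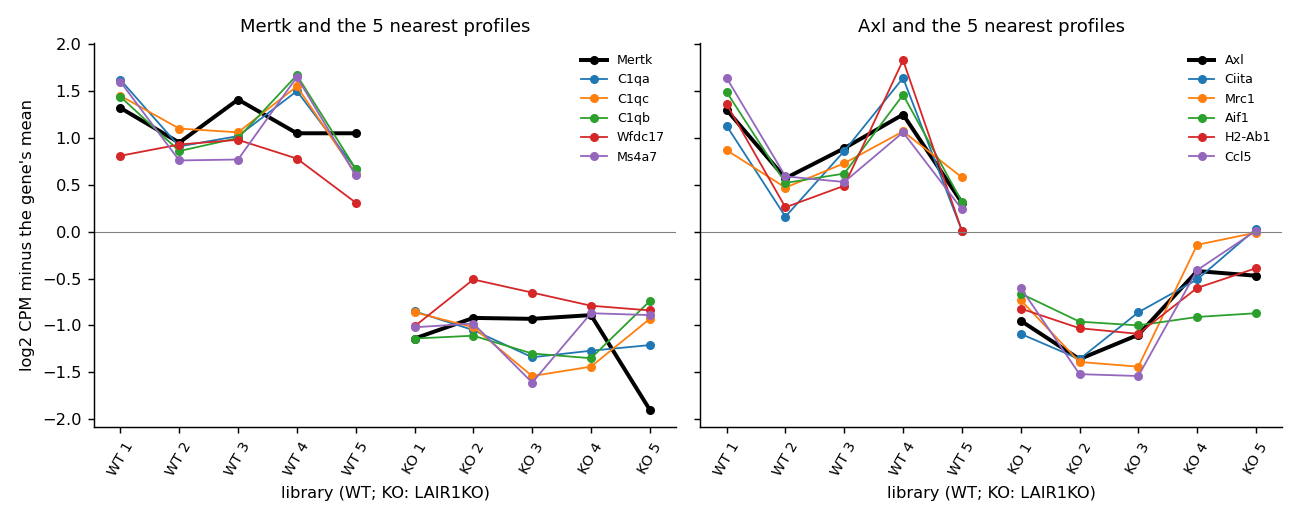
Log2 CPM minus the gene's mean over the 10 libraries (vertical axis) by library (horizontal axis) for Mertk with its 5 nearest genes (left) and Axl with its 5 nearest genes (right). The described gene is in black. All profiles lie at or above 0 in WT, and in LAIR1KO they lie below 0 except for values close to 0 among the Axl neighbours in replicate 5.

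The rest of the uptake pathway was examined through 96 other genes in 7 functional groups, of which 83 were abundant enough to test. These were tested with edgeR's quasi-likelihood test, with p-values adjusted over all 13469 genes. In LAIR1KO 9 of the 83 were lower, where 1.68% of all tested genes were called lower, and 1 was higher, where 5.11% were called higher. Their median log2 fold change was -0.2 beside 0.0 over all genes, and 68 of 83 lay below 0. The log2 fold changes of the nonclassical monocyte markers also lay below 0, from -0.42 to -0.13, with none called. Whether these shifts are linked was not tested. Among the 83, WT and LAIR1KO did not overlap for 6 lower genes and 1 higher gene. Over all tested genes 2.06% were lower and 5.61% higher without overlap. Over all genes 914 passed, 75.3% of them higher, and 90.1% of the 1379 calls were higher when libraries were scaled by their totals, which moves the median of all genes by 0.13. Several group members were known as changed when the groups were drawn up, so these counts are descriptions.

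The bridging and opsonising proteins besides the TAM ligands had 4 of 8 tested members lower and 0 higher (median log2 fold change -0.96). Over all tested genes 1.68% were called lower and 5.11% higher. The falls in this group were those of the C1q chains and Lgals3. C1q binds apoptotic cells and tags them for uptake. C1qa was reduced from 115 ± 32.4 CPM to a mean of 22.9 ± 3.23 CPM (n = 5, SD; a log2 fold change of -2.33 ± 0.18, edgeR adjusted p = 6.37e-05). C1qc fell from 184 ± 44.6 to 36.6 ± 7.58 CPM (-2.33 ± 0.19, edgeR adjusted p = 6.37e-05). C1qb fell from 367 ± 108 to 75.1 ± 13.3 CPM (-2.29 ± 0.19, edgeR adjusted p = 6.69e-05). The groups did not overlap for any of the 3 chains. Galectin-3, the product of Lgals3, is a proposed Mertk ligand. Lgals3 went from 651 ± 62.8 to 464 ± 79.2 CPM (-0.49 ± 0.12, edgeR adjusted p = 0.0298), and this call was lost when any 1 of WT replicates 1 to 4 or LAIR1KO replicates 2, 4 and 5 was left out (edgeR adjusted p up to 0.0809).

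Transcription factors and lipid-export genes that macrophages engage after uptake had 4 of 11 tested members lower and 0 higher (median -0.38, all 11 below 0). The shares called over all tested genes were 1.68% lower and 5.11% higher. Maf, a macrophage transcription factor, fell from 12.3 ± 4.85 CPM to a mean of 3.63 ± 0.269 CPM (n = 5, SD; a log2 fold change of -1.75 ± 0.25, edgeR adjusted p = 0.00148), without overlap. Nr1h3 encodes LXRα, a sterol-sensing receptor known to induce Mertk. It fell from 27.0 ± 3.04 to 15.8 ± 3.74 CPM (-0.77 ± 0.17, edgeR adjusted p = 0.0163), without overlap, and passed with each single library left out. Apoe, whose product carries cholesterol out of the cell, fell from 14130 ± 2565 CPM to a mean of 9489 ± 2031 CPM (-0.57 ± 0.16, edgeR adjusted p = 0.0456). It kept its call in 2 of the 10 fits that each leave out 1 library, those without WT replicate 2 or LAIR1KO replicate 1.

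Find-me and do-not-eat-me genes, which draw phagocytes in or hold them back, had 1 of 9 tested members lower and 1 higher (median -0.26). Of all tested genes 1.68% were called lower and 5.11% higher. Cd24a encodes an anti-phagocytic surface glycoprotein that is also abundant on immature marrow cells. It rose from 17.2 ± 3.05 CPM to a mean of 30.5 ± 5.9 CPM (n = 5, SD; a log2 fold change of 0.82 ± 0.16, edgeR adjusted p = 0.00937), without overlap. All 6 myeloid progenitor markers were higher in the same libraries, and their part in the Cd24a value was not tested. P2ry6, the receptor for nucleotides released by dying cells, fell from 98.4 ± 9.62 to 66.1 ± 16.2 CPM (-0.57 ± 0.16, edgeR adjusted p = 0.0464). Of the 10 fits that each leave out 1 library its call held in 2, those without LAIR1KO replicate 1 or 3. P2ry2, another receptor for such nucleotides and chosen here after its values were seen, stood at 1.44 ± 1.12 CPM in the WT libraries and at 5.34 ± 3.33 CPM without Lair1 (log2 fold change 1.87 ± 0.58, edgeR adjusted p = 0.0753). In LAIR1KO 4 of 5 libraries lay above every WT library. P2ry2 was called higher by DESeq2, with library totals, with no filter, and without WT replicate 3 or LAIR1KO replicate 3 (edgeR adjusted p from 0.0329 to 0.19 with 1 library left out). DESeq2 called 2 of the group lower (P2ry6 and Cd47) and 2 higher (Cd24a and P2ry2).

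Other apoptotic-cell receptors had 0 of 18 tested members called by edgeR, with 5 at an unadjusted p under 0.05 (median -0.21, 15 of 18 below 0). Over all tested genes edgeR called 1.68% lower and 5.11% higher, shares at which a list this short may hold no call. The share of all genes at that unadjusted p is not given here, so that count has no background. Alternative edgeR fits called some of these receptors. Without LAIR1KO replicate 3, Cd300a, Cd300lb and Tyrobp were lower and Cd93 higher. Msr1 was lower with the replicate number as a block, and Lrp1 without LAIR1KO replicates 4 and 5. Cd93 was also higher with library totals, with no filter or without WT replicate 1. DESeq2 called 1 lower (Tyrobp) and 1 higher (Cd93), and limma voom called Tyrobp lower. Tyrobp encodes the adaptor DAP12 of TREM2. Its means were 1737 ± 154 CPM (WT) and 1204 ± 312 CPM (LAIR1KO; SD, n = 5; log2 fold change -0.53 ± 0.16, edgeR adjusted p = 0.064). Cd93, a transmembrane protein once described as a C1q receptor, stood at 33.1 ± 8.89 and 56.5 ± 16.2 CPM (0.77 ± 0.22, edgeR adjusted p = 0.0559). The genes for TAM relatives and ligand control include the sheddases Adam10 and Adam17 and the vitamin K enzymes Ggcx and Vkorc1. The edgeR shares over all genes beside this group were again 1.68% lower and 5.11% higher. In this group 0 of 6 tested members were called by edgeR, by DESeq2 or by limma voom, with 1 at an unadjusted p under 0.05 (median -0.13). The smallest p among them was that of Socs3, a feedback inhibitor of cytokine signalling that TAM receptors induce (37.1 ± 7.17 and 26.6 ± 6.36 CPM, -0.48 ± 0.19, edgeR adjusted p = 0.153). Vkorc1 was next (14.1 ± 1.41 and 11.4 ± 1.78 CPM, -0.30 ± 0.15, edgeR adjusted p = 0.27).

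The engulfment machinery, the actin regulators that close the phagocytic cup, had 0 of 16 tested members called by edgeR, with 3 at an unadjusted p under 0.05 (median -0.09). Over all tested genes edgeR called 1.68% lower and 5.11% higher, so a list this short may hold no call at those shares. For the unadjusted p no share over all genes is given here. DESeq2 called 1 lower (Rhog) and limma voom 0. EdgeR called Rhog lower without LAIR1KO replicate 1 or 3. Rhog, a small GTPase upstream of Rac, had means of 409 ± 16.4 CPM (WT) and 318 ± 52.2 CPM (LAIR1KO; SD, n = 5; log2 fold change -0.37 ± 0.11, edgeR adjusted p = 0.0665), with groups that did not overlap. Rhoa had a log2 fold change of -0.39 ± 0.15 (edgeR adjusted p = 0.151). Phagosome maturation had 0 of 15 called by edgeR, beside the same shares over all tested genes, with 4 at an unadjusted p under 0.05 (median -0.19). DESeq2 called 1 lower (Map1lc3a) and limma voom 0. EdgeR called Map1lc3a lower without LAIR1KO replicate 1, and Cybb lower without LAIR1KO replicate 3. Map1lc3a, a member of the LC3 family, had a log2 fold change of -0.58 ± 0.19 (edgeR adjusted p = 0.0967). Lamp1, a lysosomal membrane protein, stood at 840 ± 259 and 565 ± 145 CPM (-0.57 ± 0.21, edgeR adjusted p = 0.135).

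**Figure D4:**
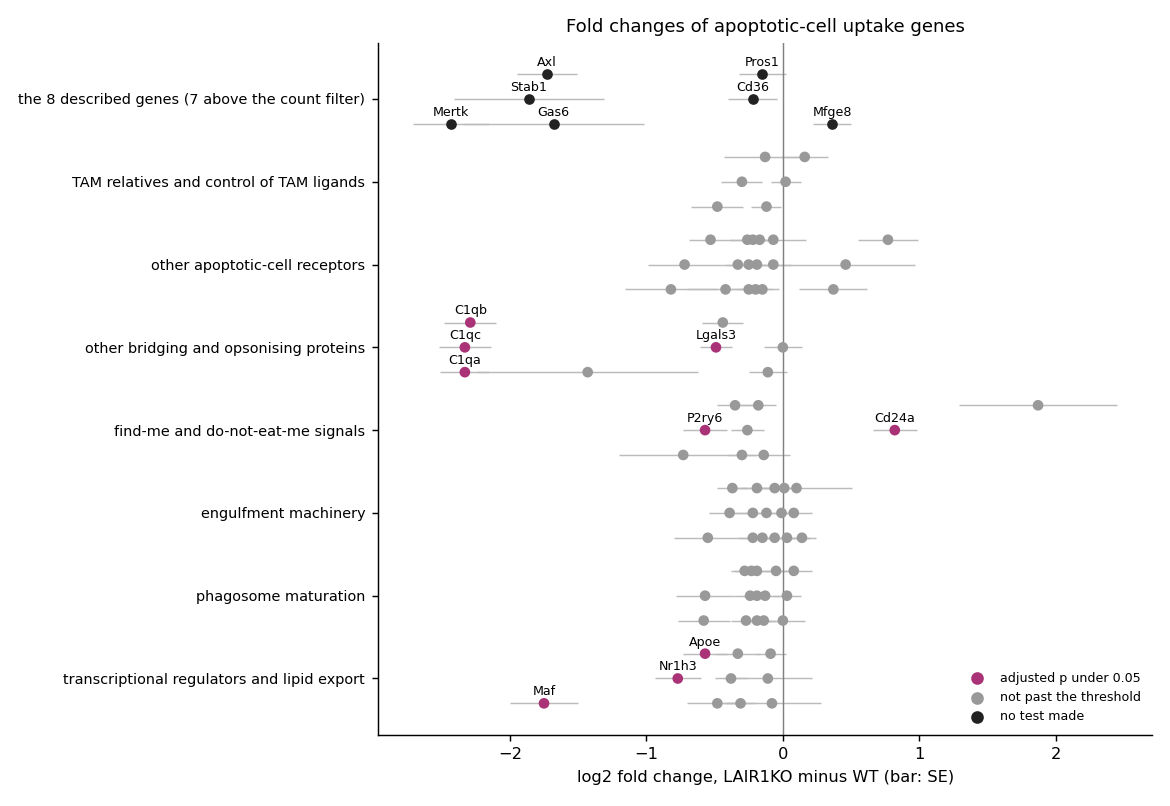
Log2 fold change, LAIR1KO minus WT, with SE (horizontal axis) of the described genes (top row, black, no test made) and of other tested uptake genes in 7 groups (rows). Magenta points passed an edgeR adjusted p under 0.05 and are named. The lowest values outside the top row are those of the C1q chains and Maf.

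The falls of C1qa, C1qb, C1qc and Maf passed in each of the 20 alternative fits. Without LAIR1KO replicates 4 and 5, 5 of the 84 uptake genes then tested were lower (C1qa, C1qb, C1qc, Maf and Lrp1) and 1 was higher (Cd24a), and without WT replicates 1 and 4 the counts were 4 lower (C1qa, C1qb, C1qc and Maf) and 0 higher. Nr1h3 lost its call in both of these fits (edgeR adjusted p = 0.0815 and 0.0734), and Cd24a in the second (edgeR adjusted p = 0.0739).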

How the data were processed

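The data are bulk RNA sequencing of 10 libraries of mouse nonclassical monocytes, 5 WT and 5 LAIR1KO. The authors deposited 1 table of raw counts per gene with 52636 Ensembl genes and no normalization. The aligner was GSNAP and the genome GRCm38.p5, per the submitters' processing notes. Not given in the sources used here are the version, counting tool, annotation release and strand setting. Each of the 10 count columns was assigned through the identifier that the sample titles share, 0 columns were left over, and 0 rows named no gene.

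Symbols, coordinates and exon lengths were taken from the GRCm38 annotation GENCODE M21, where 52489 of the 52636 identifiers were found. Promoters came from RefSeq (GRCm38.p6). Library totals of 12106209 to 15356924 counts mean that a gene at 1 CPM rests on few counts. Within a group, the counts of every pair of libraries differed beyond sampling noise (chi-square per degree of freedom 15.5 to 78.3). This was taken over genes above a minimum count in the pair, scaled by library totals. Whether each library is a different animal is not in the labels. The p-values therefore measure the spread among these samples, which may be technical.

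The counts went into edgeR 4.0.16 (R 4.3.3): filterByExpr by group (minimum count 10, minimum total 15), TMM scaling, and the quasi-likelihood test of LAIR1KO against WT with no covariate. P-values are two-sided and adjusted by Benjamini-Hochberg over 13469 genes, with a threshold of 0.05. The SE is the fold change over the square root of the F statistic. CPM per kb divides CPM by the union of exon lengths. The procedure was tested on simulated data.

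The 8 genes, the uptake groups, the marker lists and the motifs were chosen with earlier results of these data known. Named among the other uptake genes were those past the threshold, at most 4 per group by smallest p, or, with none past it, the leading 2. For Mertk and Axl the 5 nearest profiles among genes whose log2 CPM averaged 1 or more were named, leaving out predicted genes, and of a marker list the most abundant tested member. A gene that the rule takes is not reported here and remains in the counts. Genes mentioned beyond this rule were named after their values were seen.

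Alternatives were RLE and upper-quartile scaling, scaling by library totals, no filter, the replicate number as a block, a filter of 5 or more libraries at 1 CPM, DESeq2 1.42.0, voom in limma 3.58.1, each library left out in turn, LAIR1KO replicates 4 and 5 or WT replicates 1 and 4 left out together, and the longest transcript as the length.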

Additional observations from a re-analysis of the deposited data

Results flagged for a closer look

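In 4 of 54 groups of 5 libraries examined, 1 library lay farther from the others than Dixon's 95% critical value of 0.71 allows, where chance gives about 1 in 20. Gas6 stood at 2.54 CPM in LAIR1KO replicate 5, with the nearest other LAIR1KO library at 0.575 CPM (ratio 0.84). Mfge8 stood at 33.9 CPM in LAIR1KO replicate 3, with the nearest at 40.8 CPM (ratio 0.8). Socs3 stood at 24.7 CPM in WT replicate 1, with the nearest at 37.4 CPM (ratio 0.75). P2ry6 stood at 81.8 CPM in WT replicate 2, with the nearest at 99.6 CPM (ratio 0.74).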

How the results depend on the processing

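The 914 calls over all genes became 1379 with library totals, 1516 with DESeq2, 376 without LAIR1KO replicates 4 and 5, 338 without WT replicates 1 and 4, and 535 to 1170 with single libraries left out, the lowest being 535, 585 and 594 without LAIR1KO replicate 4, WT replicate 3 and LAIR1KO replicate 5. Same-numbered libraries did not deviate together (correlations -0.0775 to 0.0466, 0 of 5 over 0.1), and with the replicate number as a block 600 genes passed. The 9 lower uptake genes became 14 with DESeq2, 5 without LAIR1KO replicates 4 and 5, 4 without WT replicates 1 and 4, and 5 to 14 with single libraries left out. They were 5 without WT replicate 1, 3 or 4 or LAIR1KO replicate 4 or 5, and 14 without LAIR1KO replicate 3. The 1 higher uptake gene became 3 with library totals, no filter or DESeq2, 0 without WT replicates 1 and 4, and 1 to 3 with single libraries left out (3 without LAIR1KO replicate 3, 2 without WT replicate 1 or 3).

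The log2 fold change turned positive without LAIR1KO replicates 4 and 5 for Pros1 (0.03) and Cd36 (0.04). Those of Mertk (-2.5 to -2.27), Axl (-2.04 to -1.43), Gas6 (-2.72 to -1.43), Stab1 (-2.26 to -1.56) and Mfge8 (0.3 to 0.5) kept their sign in all 20 alternatives. The order of levels in WT changed rank for 0 to 2 genes with single libraries left out. Of 360 values of the 18 uptake genes that the naming rule takes, 297 kept their side of the threshold, 50 lost a call, 13 gained one and 0 changed sign. The causes were not tested. Low counts limit the values of Timd4, Gas6, Mertk and Stab1 (13, 169, 344 and 341 counts over the WT libraries, 10, 58, 71 and 105 over the LAIR1KO libraries).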
